A study of Homo sapiens with 20 samples.

Results

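Olaparib in METTL3 knockdown RKO cells was examined by setting the deposited list of open chromatin intervals of treated cells against that of untreated cells. RKO is an established human colon carcinoma line, labelled as colon adenocarcinoma cells. Both groups carried a short hairpin RNA against METTL3 (shMETTL3), so the knockdown is common to them. One group of 2 samples was untreated and the other group of 2 samples received the PARP inhibitor olaparib (PARP stands for poly(ADP-ribose) polymerase) at a dose and for a time that the labels do not give. Whether the 2 samples of a group were separate cultures, and whether the hairpin line was a clone, is not given either. The 4 samples belong to a series of 20 ATAC-seq samples of RKO and of LOVO, a second colon line, and 2 of its 10 deposited lists hold them. ATAC-seq uses a transposase to insert sequencing adapters into accessible DNA, and an interval on such a list is a stretch where insertions were enriched.

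Each list describes a group, not a sample, so no value per sample and no spread between samples was to hand, no test between the groups was possible, and the sequencing depth is unknown. The untreated list holds merged intervals, with positions only. The olaparib list holds scored intervals, each with a peak name of replicate 1 and that peak's score from the authors. The pair therefore differs in form as well as in treatment, and the effects of form, depth, drug and any difference in how the samples of each group were handled cannot be told apart. The RKO cells with a control hairpin (shControl) supply the same change of form: their 4 untreated samples, 2 of them from a second batch per their labels, stand behind a merged and a scored list, and 2 olaparib samples stand behind another scored list. Which untreated shControl list holds the second batch is not given, so comparisons with either of them may also differ in batch. LOVO shMETTL3 cells, with 2 untreated and 2 olaparib samples, supply it again. In bulk ATAC-seq, fewer cells with an open site and a site that is less open in every cell cannot be told apart. Intervals in brackets after a percentage are 95% exact (Clopper-Pearson) binomial intervals and cover counting error only.

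METTL3 is the catalytic subunit of the complex that writes N6-methyladenosine (m6A) on nuclear RNA, including RNA of LINE1 retrotransposons. PARP1 and PARP2 bind broken DNA, attach chains of ADP-ribose to themselves, to histones and to other proteins, and thereby loosen chromatin and call in repair factors. Olaparib blocks this activity and holds the enzymes on DNA, and cells that lack homologous recombination are known for their sensitivity to it.

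Nearly every untreated interval was still present with olaparib, and most olaparib intervals were new to the list. The untreated list held 6916 intervals and the olaparib list 35455, which is 5.13 times as many. The olaparib list covered 12.3 Mb and the untreated list 1.98 Mb, a ratio of 6.22. Of the untreated intervals, 6722 met an olaparib interval by at least 1 bp and are called kept, a share of 97.2% (96.8 to 97.6). The other 194 are called lost, so that the share of untreated intervals lost was 2.81%. Of the olaparib intervals, 6651 had an untreated partner and 28804 had none. The latter are called gained, and the share of olaparib intervals gained was 81.2% (80.8 to 81.6).

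The same pair of forms, merged and scored, gave other values in the control hairpin. There the olaparib list held 0.924 times as many intervals as the merged untreated list and covered 0.696 times its length, 73.1% of the untreated intervals were kept and 26.9% lost, and 16.9% of the olaparib intervals were gained. Between the merged and the scored untreated shControl lists, with no drug in either but possibly with different batches, 63.1% of the merged intervals were kept, 36.9% were lost and 11.5% of the scored intervals were gained. Between the 2 scored shControl lists, which share their form and differ in the drug and possibly in batch, 11.5% of the untreated intervals were lost and 29.2% of the olaparib intervals were gained. LOVO shMETTL3 cells resembled RKO shMETTL3 cells in direction: the olaparib list held 3.13 times as many intervals, 99.2% of the untreated intervals were kept, 0.792% were lost, and 67% of the olaparib intervals were gained. With 1 list per group, none of these differences between comparisons could be tested.

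**Figure D1:**
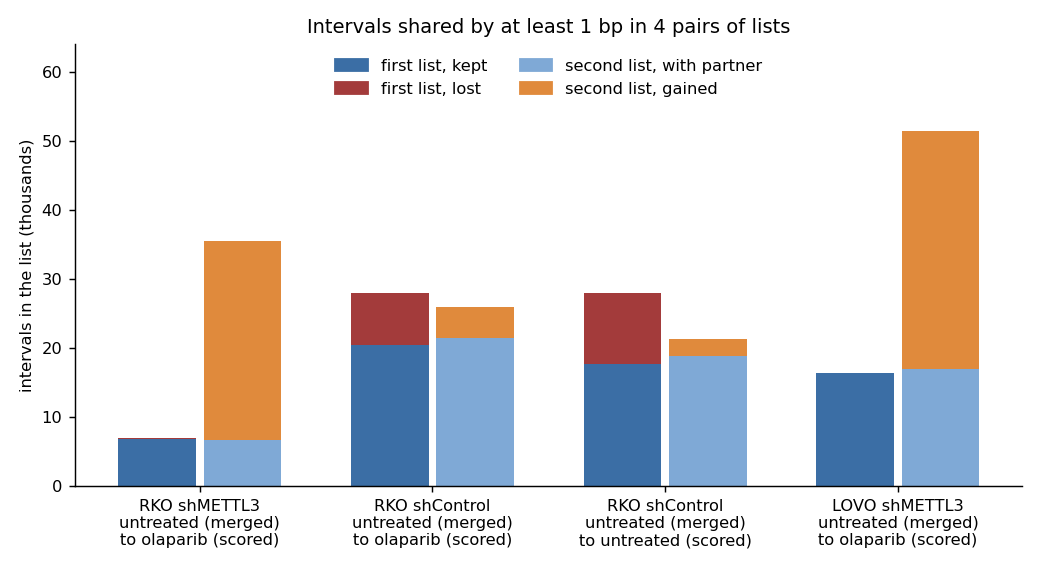
Number of intervals (in units of 1000) in the first and the second list of 4 pairs, each divided into intervals with and without a partner by at least 1 bp. In RKO shMETTL3 the second bar rises from 6916 to 35455 intervals with 28804 of them gained, whereas in RKO shControl the pair of the same forms goes from 27978 to 25855 intervals.

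Kept places were wider in the olaparib list. The 6722 kept untreated intervals had a median width of 256 bp and their olaparib partners one of 536 bp, 2.09 times as wide. Of the kept untreated intervals, 80.7% lay wholly inside an olaparib interval, and 99.4% had exactly 1 partner. The control hairpin with the same forms had the opposite order of widths: kept untreated intervals had a median of 550 bp and their olaparib partners 374 bp, a ratio of 0.68, and 8.48% lay wholly inside. In LOVO shMETTL3 the medians were 482 and 447 bp.

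Gained intervals were narrower, lower in score and farther from gene starts than the olaparib intervals with an untreated partner. Their median width was 240 bp and the median score of their deposited peaks was 7.69, against 536 bp and 11.3. A wider interval has more room to meet another by 1 bp, so the difference in width can follow in part from that definition. A start window, taken here as 1 kb either side of the start of a protein-coding gene, held 28.7% of the gained intervals and 64.5% of those with a partner. A gained interval lay at a median of 12520.5 bp from the nearest start, one with a partner at 271 bp. Gained intervals were not flanks of untreated ones: the median gap to the nearest untreated interval was 75.6 kb, and 5.63% lay within 1 kb of one. Read by place, 34.2% (33.4 to 35.0) of the olaparib intervals in start windows had an untreated partner, as had 10.5% of those in gene bodies and 10.1% of those between genes. The untreated intervals were kept at 98.1%, 95.2% and 96.2% in the same 3 places.

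The share with an untreated partner rose with the score of the olaparib interval. In the lowest decile of scores, from 1.75 to 4.64, 3.89% had a partner, and in the highest decile 46.7% had one. Within each of the 10 deciles the share was higher in start windows than elsewhere, by 3.87 to 46.6 percentage points and by 25.2 points on average. In the lowest decile the shares were 6.24% in start windows and 2.37% elsewhere, and in the highest 79.2% and 33.8%. Among intervals of like width the difference was smaller, 0.821 to 12.2 points with a mean of 5.45. Of the 6916 olaparib intervals with the highest scores, 12.2 or more, 40.6% had an untreated partner. Of these highest-scored intervals 32.0% lay in start windows, against 63.6% of all untreated intervals. Of the 6916 widest olaparib intervals, 499 bp or more, 53.8% had an untreated partner.

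**Figure D2:**
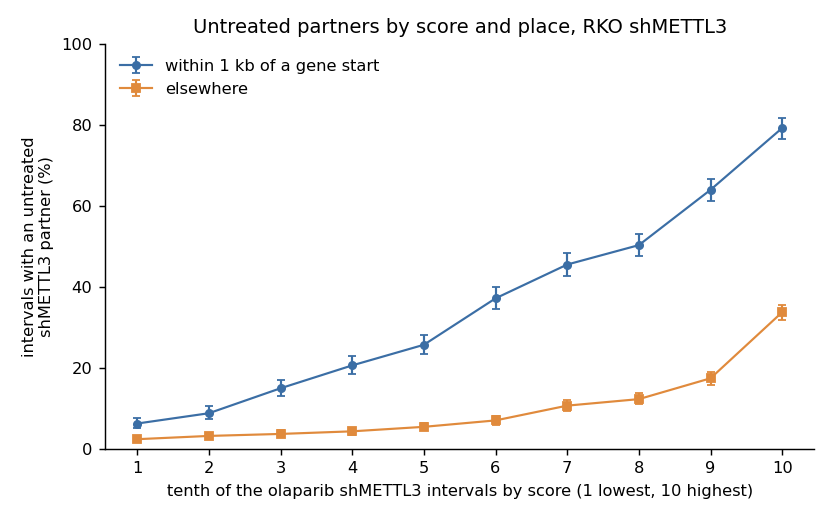
Share (%) of olaparib shMETTL3 intervals with an untreated shMETTL3 partner, by decile of the authors' score, for intervals within 1 kb of a gene start and elsewhere, with 95% exact binomial intervals. The share climbs from 6.24% to 79.2% in start windows and from 2.37% to 33.8% elsewhere, and the start windows lie higher in each decile.

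Most gained places were already on a list of RKO cells with the control hairpin. Of the 28804 gained intervals, 19717 met an interval of an untreated shControl list, a share of 68.5% (67.9 to 69.0). The merged shControl list alone met 62.7%, the scored one 46.9%, and both 41.1%. With the 2 shControl olaparib samples, 60.0% of the gained intervals were on the list. By pattern, 53.9% were open in shControl cells with and without olaparib, 14.6% without it only, 6.16% (1774) with it only, and 25.4% (7313) in no shControl list of RKO. Those 7313 intervals had a median score of 6.37 and a median width of 168 bp, and 9.74% of them lay in start windows. Across all 10 lists of both lines, 5373 gained intervals (18.7%) were on the olaparib shMETTL3 list of RKO alone. Olaparib intervals with an untreated partner lay almost always on shControl intervals: 98.2% met an untreated shControl list. In LOVO shMETTL3 cells with olaparib, 51.0% of the gained and 89.2% of the partnered intervals had a counterpart.

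**Figure D3:**
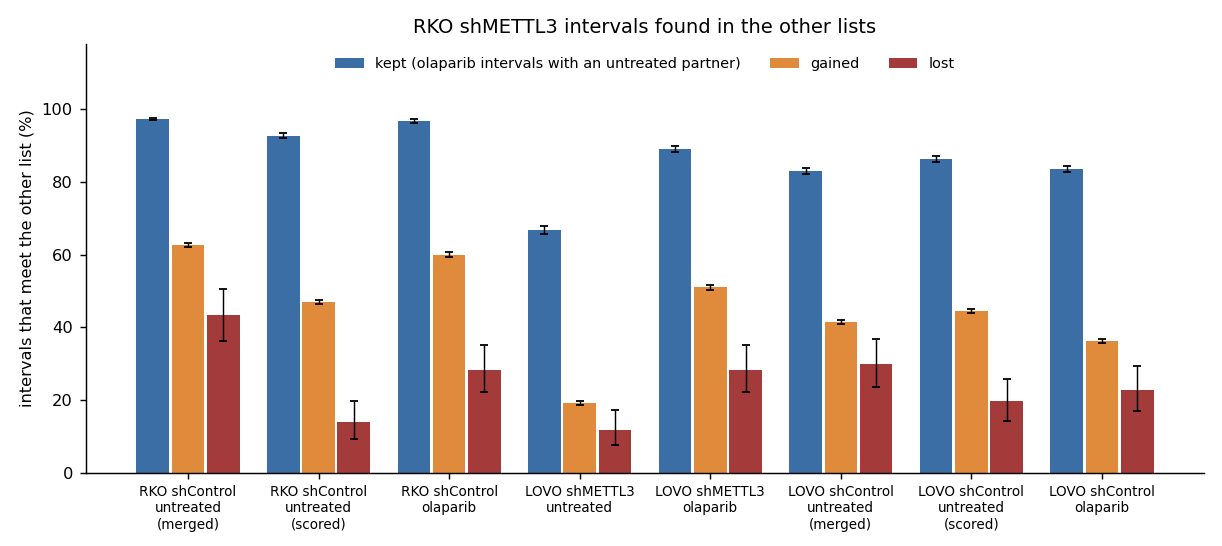
Share (%) of kept, gained and lost RKO shMETTL3 intervals that meet an interval of each of the other 8 lists, with 95% exact binomial intervals. Gained intervals reach 62.7% on the merged shControl list of RKO and 19.1% on the untreated shMETTL3 list of LOVO, and lie between the kept and lost intervals for each of the 8 lists.

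The gained interval with the highest score, 30.4, spanned chr2:239927417-239927771 in the body of a gene, with NDUFA10, a subunit of respiratory complex I, as the nearest start at 97748 bp. It was on every list of both lines except the untreated shMETTL3 list of RKO. A further one among the 10 highest (chr3:142808193-142808404, score 28.0) lay between genes, 80785 bp from PCOLCE2, which encodes an enhancer of procollagen processing, and was open in all RKO lists except the untreated shMETTL3 list and in no LOVO list. A gained interval at chr17:53106266-53106438 (score 26.4) lay 716575 bp from KIF2B, which encodes a kinesin, and the 1 other list that held it was LOVO shMETTL3 with olaparib. An interval in a gene body 4737 bp from RIMBP3C (chr22:21556034-21556363, score 26.3) was likewise missing from 1 list only, the untreated shMETTL3 list of RKO.

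Among olaparib intervals with an untreated partner, the highest score, 47.9, belonged to chr20:14609938-14610166, in a gene body 272440 bp from FLRT3, a cell adhesion gene. Scores of 46.1 and 45.9 belonged to chr17:22521207-22521685, between genes, and to chr5:74758884-74759090, 8130 bp from the start of GFM2, which encodes a mitochondrial translation factor. These 3 intervals were present in all 10 lists. The 10 widest untreated intervals included 934 bp at the start of MBD4, a DNA glycosylase that acts on deaminated methylcytosine (chr3:129439570-129440503), and 919 bp at the start of RAB5B, an endosomal GTPase (chr12:55973554-55974472). Both were on every list.

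The 194 lost intervals were narrow and often on no other list. Their median width was 194 bp, against 256 bp for kept untreated intervals, and 43.8% (85) lay in start windows. An untreated shControl list held 91 of them (46.9%), 96 (49.5%) were on no shControl list of RKO, and 80 (41.2%) were on none of the other lists of either line. The widest, 494 bp at chr12:133080066-133080559, lay 611 bp upstream of the start of ZNF140, a KRAB zinc finger gene, and was open in all 3 shControl lists of RKO and in no LOVO list. A lost interval of 419 bp, chr11:64305128-64305546, lay 187 bp upstream of ESRRA, an orphan nuclear receptor gene of energy metabolism, and one of 341 bp, chr11:65333906-65334246, lay 224 bp downstream of the start of DPF2, a subunit of the BAF remodelling complex. Each of these genes kept another interval in its start window with olaparib, so none of the 3 counts as a lost promoter below.

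Promoters were followed gene by gene. A gene is called open when an interval falls in its start window, or, for the 4195 of 20037 protein-coding genes whose start was not in the reference table, in a window at either gene end. A gene open in both lists need not hold intervals that overlap each other. Where a list held more than 1 interval in the window, the width of only 1 is given below. MPHOSPH8 untreated and CHD1L with olaparib, with 2 each, are examples. With shMETTL3, 4923 genes were open in both lists, 5928 in the olaparib list only (gained promoters), 15 in the untreated list only (lost promoters) and 9171 in neither (closed). The gained share was 39.3% of the 15099 genes closed in untreated cells (38.5 to 40.05), and the lost share was 0.304% of the 4938 open ones (0.170 to 0.501). In the control hairpin with the same forms, 2.49% of closed genes were gained and 6.82% of open genes lost. Between the merged and scored untreated shControl lists the shares were 1.28% and 14.4%, and between the scored lists without and with olaparib 10.8% and 2.38%. In LOVO shMETTL3, 34.3% were gained and 0.228% lost. Of the 5928 gained promoters, 5613 (94.7%) were open in an untreated shControl list of RKO, 5227 (88.2%) in shControl with olaparib, and 226 (3.81%) in no shControl list of RKO. Over all protein-coding genes, 24.6% were open in both lists. These shares (24.6% open in both, 39.3% of closed genes gained, 94.7% of gained promoters open in untreated shControl) are the background for each gene list below. The median score of the olaparib interval was 10.8 at promoters open in both lists and 7.85 at gained ones.

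Promoter sequences are shown for 4 of the 6 genes open in both lists that were named by score, to let the CpG content and motifs counted below be seen in place. Each runs 5′ to 3′ on the gene's strand from 250 bases before to 50 after the start, from RefSeq, build GRCh38.p14: METTL3 (chr14:21511291-21511590, minus strand), ORC3, a subunit of the origin recognition complex (chr6:87589885-87590184, plus strand), UBE2T, the ubiquitin-conjugating enzyme of the Fanconi anaemia pathway (chr1:202341887-202342186, minus strand), and ECT2, a guanine nucleotide exchange factor of cytokinesis (chr3:172750476-172750775, plus strand). Capitals mark matches, on either strand, to the motifs searched. These were the box CCAAT, the GC box with the letters GGGCGG, the ETS motif with the letters CCGGAAG, the TATA box with the letters TATAAA, the E-box with the letters CACGTG, the AP-1 motif with the letters TGACTCA and the TEAD motif with the letters GGAATG.
METTL3: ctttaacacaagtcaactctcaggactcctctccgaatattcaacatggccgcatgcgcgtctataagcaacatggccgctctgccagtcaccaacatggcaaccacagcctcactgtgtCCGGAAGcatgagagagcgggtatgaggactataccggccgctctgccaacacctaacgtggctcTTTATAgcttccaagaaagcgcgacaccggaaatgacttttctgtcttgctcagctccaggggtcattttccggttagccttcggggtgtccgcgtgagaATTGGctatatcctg
ORC3: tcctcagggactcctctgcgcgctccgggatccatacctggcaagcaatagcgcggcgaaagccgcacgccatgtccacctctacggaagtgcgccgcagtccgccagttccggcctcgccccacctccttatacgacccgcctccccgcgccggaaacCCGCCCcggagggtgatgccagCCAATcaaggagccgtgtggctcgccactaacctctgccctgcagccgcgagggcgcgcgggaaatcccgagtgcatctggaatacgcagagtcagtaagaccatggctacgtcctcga
UBE2T: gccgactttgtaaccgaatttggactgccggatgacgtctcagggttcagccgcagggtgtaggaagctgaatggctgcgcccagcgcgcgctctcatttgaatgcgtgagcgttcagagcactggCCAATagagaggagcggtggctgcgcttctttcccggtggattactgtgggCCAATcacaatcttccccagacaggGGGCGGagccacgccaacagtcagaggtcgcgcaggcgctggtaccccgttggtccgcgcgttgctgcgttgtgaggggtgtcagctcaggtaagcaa
ECT2: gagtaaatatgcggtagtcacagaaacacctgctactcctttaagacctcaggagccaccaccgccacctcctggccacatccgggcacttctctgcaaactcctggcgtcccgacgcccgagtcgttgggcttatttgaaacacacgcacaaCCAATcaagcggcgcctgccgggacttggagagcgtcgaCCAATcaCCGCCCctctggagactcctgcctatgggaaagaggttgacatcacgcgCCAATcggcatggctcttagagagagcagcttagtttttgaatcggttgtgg

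The other 4 promoters are those of GINS2, a subunit of the replicative helicase (chr16:85688905-85689204, minus strand), and BRCA2, a mediator of homologous recombination (chr13:32315258-32315557, plus strand), both gained; of MLH3, a mismatch repair and meiosis gene and the lost promoter of that list (chr14:75051418-75051717, minus strand); and of CEACAM5, the carcinoembryonic antigen gene, closed in both lists (chr19:41708376-41708675, plus strand). They were chosen after their values were seen, to set the states side by side. Capitals mark the same motifs, and MLH3 matched none of them.
GINS2: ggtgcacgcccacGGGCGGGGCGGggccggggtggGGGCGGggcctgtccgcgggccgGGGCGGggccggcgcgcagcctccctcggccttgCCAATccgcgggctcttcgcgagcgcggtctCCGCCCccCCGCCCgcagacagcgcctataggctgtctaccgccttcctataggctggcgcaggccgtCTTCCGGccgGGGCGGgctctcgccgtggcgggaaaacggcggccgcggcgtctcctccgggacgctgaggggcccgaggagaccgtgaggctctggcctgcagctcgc
BRCA2: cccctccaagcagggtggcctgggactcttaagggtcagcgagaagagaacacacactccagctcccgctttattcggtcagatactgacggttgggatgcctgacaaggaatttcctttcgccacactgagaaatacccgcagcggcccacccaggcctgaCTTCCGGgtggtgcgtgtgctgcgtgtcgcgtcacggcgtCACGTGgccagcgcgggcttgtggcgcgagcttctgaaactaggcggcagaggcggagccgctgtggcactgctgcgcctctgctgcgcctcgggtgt
MLH3: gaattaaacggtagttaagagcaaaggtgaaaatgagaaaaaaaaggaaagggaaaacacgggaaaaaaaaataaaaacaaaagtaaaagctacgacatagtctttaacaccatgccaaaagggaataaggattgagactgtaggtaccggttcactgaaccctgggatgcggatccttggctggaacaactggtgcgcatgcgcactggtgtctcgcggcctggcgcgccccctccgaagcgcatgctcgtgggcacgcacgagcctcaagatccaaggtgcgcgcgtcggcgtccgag
CEACAM5: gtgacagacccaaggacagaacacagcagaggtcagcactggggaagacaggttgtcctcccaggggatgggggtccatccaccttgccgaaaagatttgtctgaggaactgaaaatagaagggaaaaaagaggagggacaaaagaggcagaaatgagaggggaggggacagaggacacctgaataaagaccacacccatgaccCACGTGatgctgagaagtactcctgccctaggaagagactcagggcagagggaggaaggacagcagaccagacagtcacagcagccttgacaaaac

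GINS2 holds 43 CpG dinucleotides in 300 bases and CEACAM5 holds 2. ECT2 has 3 CCAAT matches and UBE2T has 2, ORC3, METTL3 and GINS2 have 1 each, and BRCA2, MLH3 and CEACAM5 have none. The 2 promoters open in both lists that the rule also named, and that are not printed, are PSMC4, with no CCAAT match, and IFI6, with 1 match and 9 CpG. MLH3 has the highest ratio of observed to expected CpG of the printed lines, 1.15. These few lines are examples and do not stand for the sets, whose shares follow.

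Across the 15842 promoters with a sequence, the median CpG content was alike at promoters open in both lists and gained ones, and lower at closed ones. The ratio of observed to expected CpG had a median of 0.860 at the 4101 promoters open in both lists, 0.857 at the 4819 gained ones and 0.376 at the 6909 closed ones. The lower end of the range differed: the bound of the lowest decile of the ratio was 0.636 within the promoters open in both lists and 0.520 within the gained ones. The median GC content was 66%, 66% and 56.3% at open, gained and closed promoters. In the lowest decile of promoters by that ratio 0.568% were open in both lists, 4.99% gained and 94.4% closed, and in the highest decile 35.1%, 47.4% and 17.4%.

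The CCAAT box, bound by the trimeric factor NF-Y, was more frequent at promoters open in both lists than at gained ones. It was found in 46.9% (45.4 to 48.5) of the former, 30.7% (29.4 to 32.0) of the latter, 34.1% of closed promoters and 36.4% of all. The GC box stood at 77.1%, 71.5%, 38.4% and 58.5%, and the ETS motif at 22.9%, 20.96%, 4.41% and 14.2%. The TATA box was found in 4.10% of promoters open in both lists, 5.35% of gained and 15.9% of closed ones, beside 9.63% of all. The AP-1 motif was found in 2.22%, 3.32% and 4.75%, beside 3.66% of all promoters, and the TEAD motif in 9.70%, 10.7% and 13.6%, beside 11.7%. The E-box was found in 11.1%, 10.7% and 6.35%, beside 8.88%. A match is a string of letters and says nothing of binding.

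Of the promoters open with olaparib, 56.6% (54.9 to 58.2) of the 3402 with a CCAAT box were open untreated as well, against 39.5% (38.2 to 40.8) of the 5518 without one, a difference of 17.1 points. Within quintiles of promoters by CpG ratio the difference was 13.3 to 19.4 points. Within quintiles by score of the olaparib interval it was smaller, 2.59 to 12.6 points. The median CCAAT match lay 96 bases before the start at promoters open in both lists (position -96) and 91 before it at gained ones (-91). The same difference was 7.26 points for the GC box and 2.82 for ETS, and for ETS it was negative in 4 of the 5 score quintiles.

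**Figure D4:**
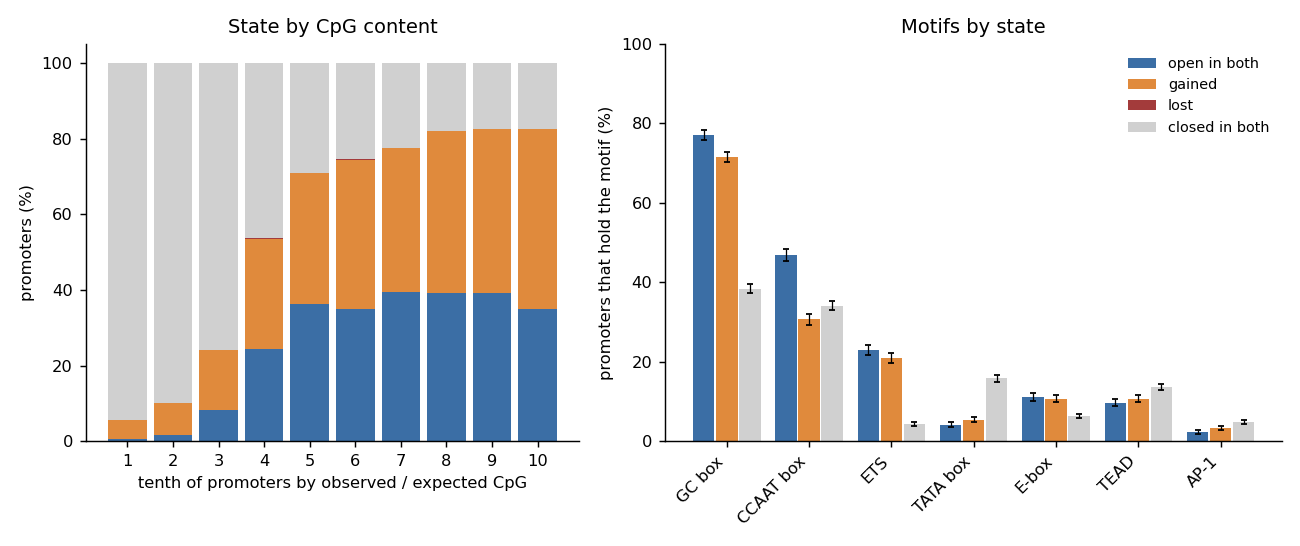
Left, share (%) of promoters open in both lists, gained, lost or closed, by decile of observed over expected CpG in the 300-base promoter. Right, share (%) of promoters of each state that hold a motif on either strand, with 95% exact binomial intervals; the CCAAT box is at 46.9% in promoters open in both lists and 30.7% in gained ones, and the lost state has only 13 promoters and no bars.

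The promoters of METTL3, PARP1 and PARP2 were open in both lists. Because the hairpin targets RNA, the METTL3 promoter says nothing about the knockdown. It held an interval of 253 bp in untreated shMETTL3 cells (chr14:21511275-21511527) and one of 678 bp with olaparib (chr14:21510879-21511556, score 18.2). In shControl cells it held 768 bp in the merged list, 398 bp in the scored untreated list and 412 bp with olaparib. Of the 27 writers, erasers and readers of m6A, 14 were open in both lists, 11 were gained and 2 (IGF2BP1 and ZCCHC4) were closed. The gained share of members closed in untreated cells was 84.6%, beside 39.3% of all closed genes. The merged shControl list held 26 of the 27 open, against 10785 of all 20037 genes. FTO, an eraser, was open in both, with 350 bp untreated and 572 bp with olaparib. METTL14, the partner that binds RNA for METTL3, was gained with 450 bp and a score of 14.98, as was ZC3H13, which anchors the writer complex in the nucleus (221 bp, score 15.7). The readers YTHDC1, YTHDC2 and YTHDF2 were gained with scores of 13.5, 13.7 and 8.92. All 11 gained members were open in an untreated shControl list, as were 94.7% of all gained promoters.

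PARP1 was open in both lists, with 281 bp untreated (chr1:226407807-226408087) and 510 bp with olaparib at a score of 5.73. PARP2 had 254 bp untreated (chr14:20343120-20343373) and 593 bp with olaparib at a score of 15.3. In the 3 shControl lists PARP1 had widths of 834, 382 and 770 bp and PARP2 of 1179, 531 and 470 bp, in the order merged untreated, scored untreated and olaparib. Of the 21 PARP enzymes and partners, 11 were open in both lists and 10 were gained. The gained ones included PARP6 (392 bp, score 13.3), PARP12, an antiviral mono-ADP-ribosyltransferase (588 bp, score 7.85), and ADPRS, a hydrolase that removes serine-linked ADP-ribose (632 bp, score 9.71). CHD1L, a remodeller activated by ADP-ribose chains, was open in both, at 267 and 461 bp.

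DNA repair promoters were split between those open throughout and those gained. In base excision and single-strand break repair, 13 of 22 were open in both lists and 9 were gained. OGG1, the glycosylase for oxidised guanine, held 484 bp untreated and 846 bp with olaparib, and LIG1, DNA ligase I, held 216 and 719 bp. XRCC1, the scaffold of single-strand break repair, was gained (354 bp, score 9.87), as were FEN1, the flap nuclease (579 bp, score 9.96), and TDP2 (473 bp, score 9.48). The scored shControl list held all 3 of these, at 329, 462 and 694 bp.

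In homologous recombination 20 of 38 were open in both lists, 16 were gained and 2 were closed, SLX1A among them. The gained share of closed members was 88.9%, and it was 75% in the Fanconi anaemia, 83.3% in the end joining and 80% in the mismatch repair list, beside 39.3% of all closed genes. Most members of these lists were open in the merged shControl list (36 of 38, 17 of 19, 20 of 21 and 9 of 10), against 10785 of all 20037 genes. The nuclease MRE11 and its partner RAD50 were gained with 482 and 670 bp and scores of 14.8 and 15.7. BRCA2 was gained with 302 bp (chr13:32315265-32315566, score 12.4), on the promoter printed above. XRCC3, a recombination factor, was open in both, at 382 and 541 bp, as was ZSWIM7, a subunit of the Shu complex, at 397 and 693 bp. In the Fanconi anaemia pathway, which resolves crosslinked DNA, 11 of 19 were open in both and 6 were gained. UBE2T, printed above, had 197 bp untreated and 299 bp with olaparib at a score of 21.7, and FANCL, the ligase it serves, was gained (534 bp, score 9.13).

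In end joining and shieldin, 9 of 21 were open in both and 10 were gained. XRCC4, which bridges broken ends with ligase IV, was gained (529 bp, score 17.5), as were RIF1, an effector of 53BP1 that limits resection (689 bp, score 11.1), and SHLD3 (1099 bp, score 12.2). Of 20 damage checkpoint genes, 11 were open in both and 9 gained. The kinase gene ATR was gained (678 bp, score 12.6), and so was ETAA1, an activator of that kinase (347 bp, score 13.96). CHEK2, the checkpoint kinase, was open in both, at 278 and 1022 bp.

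Of 10 mismatch repair genes, 4 were open in both lists, 4 were gained, MLH3 was lost and 1 was closed. PMS1, PMS2, PCNA and RPA1 were those open in both, and MSH3, MSH6 and RFC1 were among the gained. PMS2 had 265 bp untreated and 697 bp with olaparib. MSH6, which recognises mispaired bases, was gained with 1441 bp (score 6.74) and MSH3, which recognises small loops, with 535 bp (score 6.96). The MLH3 interval of untreated shMETTL3 cells was 365 bp (chr14:75051120-75051484). Its promoter was open in the 3 shControl lists of RKO, at 412, 429 and 196 bp, and in all 5 LOVO lists, so that the olaparib shMETTL3 list of RKO was the 1 list of 10 without it.

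Of 25 p53 target genes, 16 were open in both lists, 8 were gained and SPATA18, a mitochondrial quality control gene, was lost. TIGAR, a regulator of glycolysis, had 285 and 638 bp, and FAS, a death receptor, was gained (610 bp, score 11.2). The SPATA18 interval was 160 bp wide. The other 13 lost promoters were those of ANKRD13A, ARL6IP5, CXXC4, EPS15, HBB, HS3ST2, IPO8, PHLPP2, PLEKHA8, RNPEPL1, SEPHS1, SPRR2A and ZNF217. CXXC4, HBB, HS3ST2 and SPRR2A were open in the untreated shMETTL3 list of RKO and in none of the other 9. Of these, HBB, the beta-globin gene, held 433 bp near a gene end (chr11:5224910-5225342).

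Replication and mitosis promoters open in both lists had median scores of 12.3 and 12.1 with olaparib, beside 10.8 over all genes. Such values were not particular to them: the Fanconi anaemia, interferon and homologous recombination lists had 13.1, 12.5 and 12.2. The m6A and p53 target lists had 9.78 and 8.31. Of 33 replication genes, 17 were open in both and 15 were gained, which is 93.8% of those closed in untreated cells, beside 39.3% of all closed genes. The merged shControl list held 31 of the 33 open, against 10785 of all 20037 genes. ORC3 had 158 bp untreated and 508 bp with olaparib at a score of 22.3, MCM10 306 and 511 bp at 21.04, and MCM3, of the helicase ring, 273 and 384 bp at 20.4. Gained members included GINS2 (441 bp, chr16:85688780-85689220, score 17.0) and the clamp loader subunits RFC2, RFC3 and RFC5 (scores 13.9, 12.5 and 12.2). Of 24 mitosis genes, 15 were open in both and 9 were gained. ECT2 had 436 and 583 bp at a score of 19.2, and CCNB1, cyclin B1, 165 and 533 bp at 18.3. AURKB, a kinase of the chromosomal passenger complex, was gained (860 bp, score 10.5), as was CCNA2, cyclin A2 (532 bp, score 11.8). All 9 gained mitosis promoters and all 15 gained replication promoters were open in an untreated shControl list, near the 94.7% of all gained promoters.

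Among genes that silence or restrict retroelements, 13 of 34 were open in both lists, 18 were gained and 3 were closed. MPHOSPH8, a HUSH complex subunit, was open in both (365 and 1277 bp), as was ZNF91, a KRAB zinc finger repressor of SVA elements (233 and 334 bp). RESF1, a partner of SETDB1 (813 bp, score 15.6), ATF7IP, which stabilises SETDB1 (244 bp, score 11.2), and DNMT3A, a DNA methyltransferase (481 bp, score 11.3), were gained. Of 27 Polycomb genes 6 were open in both, 17 gained and 4 closed. EZH2, the methyltransferase of the complex, was open in both, and its paralogue EZH1 was gained (1029 bp, score 10.2). Of 27 SWI/SNF genes 10 were open in both, 11 gained and 6 closed. Of the members closed in untreated cells, 85.7% of the retroelement, 81.0% of the Polycomb and 64.7% of the SWI/SNF list were gained. The share was 39.3% over all closed genes. In the merged shControl list 28 of 34, 24 of 27 and 22 of 27 members were open, against 10785 of all 20037 genes.

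In the interferon and nucleic acid sensing list, 9 of 40 were open in both lists, 18 were gained and 13 were closed. IFI6 had 295 bp untreated and 524 bp with olaparib at a score of 19.2, and STAT2, which carries the type I interferon signal, had 506 and 712 bp. DDX60 (score 13.5), IFIT3 (13.0), MX1 (10.1) and EIF2AK2, the kinase PKR (9.995), were gained. All 4 were open in the merged shControl list. CXCL10, CXCL11, IFI44 and IFI44L were closed in both shMETTL3 lists and in the 3 shControl lists. Of the 31 members closed in untreated cells, 58.1% were gained, beside 39.3% of all closed genes. An untreated shControl list held 16 of the 18 gained ones, beside 94.7% of all gained promoters.

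Of 38 Wnt genes, 4 were open in both lists (LGR4, GSK3A, GSK3B and FZD5), 21 were gained and 13 were closed. The share open in both thus stood below the 24.6% of all genes, and 61.8% of the members closed in untreated cells were gained, beside 39.3%. At LGR4 the untreated interval (chr11:27472260-27472513) and the olaparib interval (chr11:27472608-27472978) did not overlap. The gained ones included RNF43, a ubiquitin ligase that removes Wnt receptors (347 bp, score 14.1), and the transcription factors TCF7 (383 bp, score 9.90) and TCF7L2 (492 bp, score 7.76). Of 30 AP-1 and immediate early genes 10 were open in both and 14 gained, among them FOSL2 (440 bp, score 8.58). FOSB was gained (502 bp, score 5.42) and was open in shControl with olaparib but in neither untreated shControl list. Of 28 YAP and TEAD genes 10 were open in both and 10 gained. Of members closed in untreated cells, 70% of the AP-1 and immediate early and 55.6% of the YAP and TEAD genes were gained, beside 39.3%. WWTR1, which encodes TAZ, was gained with 139 bp (score 13.1) and was open in no shControl list of RKO.

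Genes of basic cell function followed the gained pattern. All 19 of the 31 proteasome genes closed in untreated cells were gained, and 31 of the 39 closed cytosolic ribosomal protein genes (79.5%). RPL22 was gained with 365 bp (score 15.6) and PSMC6 with 674 bp (score 13.5). In the PARP, base excision repair, damage checkpoint, p53 target and mitosis lists too, 100% of the members closed in untreated cells were gained. These shares lie above the 39.3% of all closed genes. These 5 lists hold mainly genes open in the merged shControl list (19 of 21, 22 of 22, 20 of 20, 25 of 25 and 24 of 24). That list also held 31 of 31 proteasome and 51 of 56 cytosolic ribosomal protein genes open, against 10785 of all 20037 genes. Of 30 apoptosis genes 11 were open in both and 15 gained, and of 8 drug efflux genes ABCC5 was open in both, ABCC1 and ABCC4 were gained, and ABCB1, the best known of them, was closed in all 5 RKO lists. Of the members closed in untreated cells, 78.9% of the apoptosis and 28.6% of the drug efflux list were gained, beside 39.3%.

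**Figure D5:**
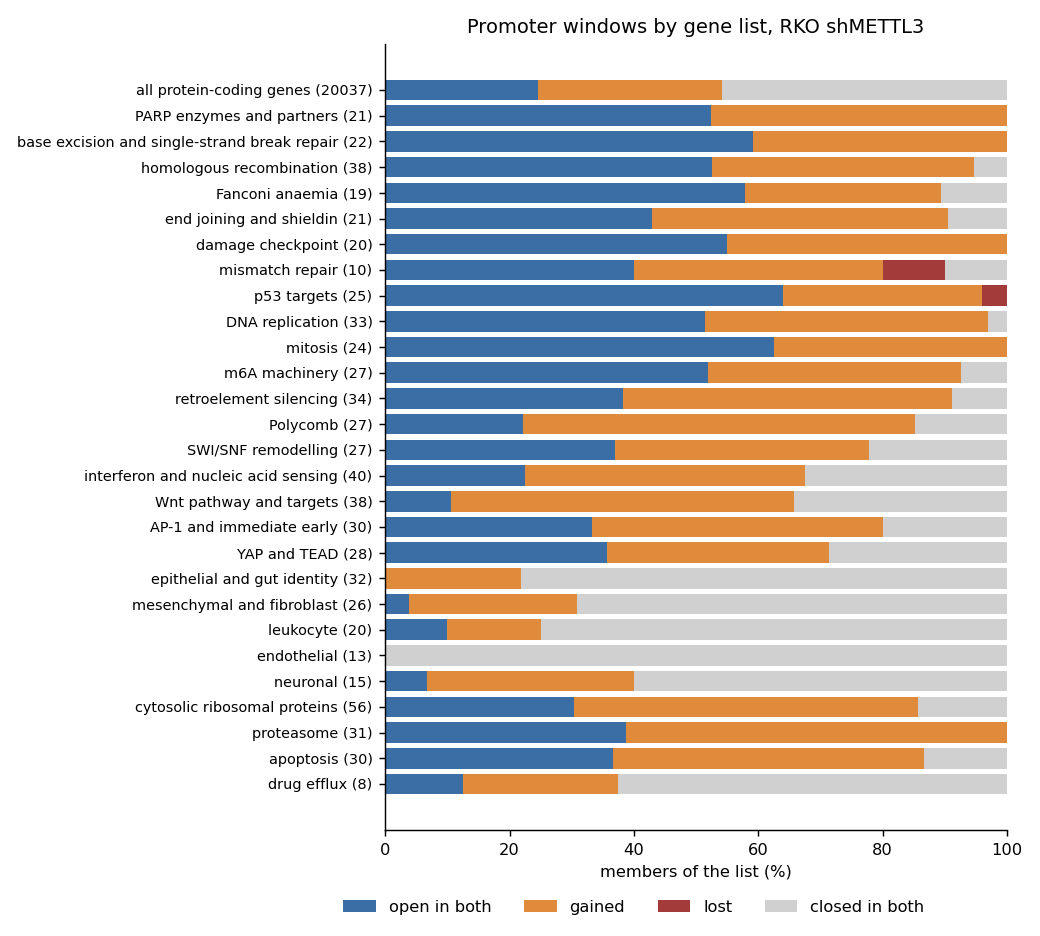
Share (%) of the members of 27 gene lists, and of all 20037 protein-coding genes, whose promoter was open in both lists, gained, lost or closed; the number of members is in brackets. Repair, replication, mitosis and proteasome lists have few or no closed members, and the epithelial, mesenchymal, leukocyte, endothelial and neuronal lists are mostly closed.

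Few markers of the labelled cell type were open. Of 32 epithelial and gut genes, 0 were open in untreated shMETTL3 cells and 7 with olaparib, and the same number, 7, were open in the merged shControl list. The gained share was 21.9%, beside 39.3% of all closed genes, and 24.6% of all genes were open in both lists. KRT18, a keratin of simple epithelia judged by both gene ends (410 bp, score 13.6), CLDN3, a tight junction claudin (320 bp), and CDX2, the intestinal homeobox factor (265 bp), were gained. CDH1, CDX1 and CEACAM5 were closed in all RKO lists. LOVO shMETTL3 with olaparib had 23 of the 32 open. Among other cell types, 8 of 26 mesenchymal, 5 of 20 leukocyte, 0 of 13 endothelial and 6 of 15 neuronal genes were open with olaparib, and 1, 2, 0 and 1 untreated. Of their members closed in untreated cells, 28%, 16.7%, 0% and 35.7% were gained, each below the 39.3% of all closed genes. Several of these, CD4, SPI1 and GRIN1 among them, were judged by both gene ends, so their interval need not lie at the gene start. ACTA2 was gained through the same interval as its neighbour FAS (chr10:88990359-88990968). ZEB1, a driver of mesenchymal transition, was gained (832 bp, score 7.26). The part of other cell types in the comparison was not tested.

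Intervals were also assigned to the nearest gene within 50 kb. By this count 11816 genes had more intervals with olaparib, 186 fewer and 8035 the same. The largest increase was at EPHA2, a receptor tyrosine kinase, from 0 to 13 intervals; the shControl lists had 10 (merged), 10 (scored) and 12 (olaparib). SMURF2, a ubiquitin ligase of TGF-beta signalling, rose from 2 to 12, and SPRY4, a feedback inhibitor of receptor kinase signalling, from 1 to 11, beside 8, 8 and 10 and 7, 7 and 7 in the shControl lists. GLRX, glutaredoxin, rose from 1 to 10, PTMA, prothymosin alpha, from 0 to 9, and SHANK1, a synaptic scaffold gene, from 2 to 11. The shControl lists had 7, 5 and 7 at GLRX, 8, 8 and 7 at PTMA and 6, 8 and 9 at SHANK1. These genes were named for their increase in the olaparib shMETTL3 list, so a high number there follows from the choice. No gene fell by more than 2 intervals; HBB and TNFAIP1 went from 2 to 0.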

How the data were processed

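ATAC-seq libraries were made with a commercial kit, per the labels' protocols. The tools MACS2 2.2.7.1 (a peak caller), DiffBind 3.0.15, Bowtie2 2.4.2 (an aligner) and Trim Galore 0.6.6, and the build hg38, are listed per the submitters' processing notes. No source used here says how reads were shifted, filtered or pooled. The authors deposited interval positions for each group and, in 6 of the 10 lists, a score per peak whose MACS2 column is not stated. Scores were used only to describe and rank intervals within the olaparib list, where 6.34% of intervals share a peak name with another.

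Overlaps of at least 1 bp, shares and 95% exact intervals were computed with Python 3.11.15, numpy 2.4.6, pandas 2.3.3 and scipy 1.17.1, and the code was tested on simulated data. Genes, starts and promoters came from RefSeq tables (GRCh38.p14, the assembly hg38 names), which hold no genome, so interval sequences and repeats were not analysed here. Of 718 gene-list entries, 715 matched. The members and gene lists were chosen with earlier results of these data known. Named are METTL3, PARP1 and PARP2; up to 5 gained and 4 kept members per list by score, lost members, up to 4 closed ones by symbol; the 10 genes with the largest increase; and the 10 strongest gained, strongest kept, widest lost and widest untreated intervals. A few of these are left unreported.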

Additional observations from a re-analysis of the deposited data

How the results depend on the processing

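No paired analysis was possible because the lists are for groups and carry no replicate numbers; for the same reason no sample could be left out in turn. Of 12 alternatives, 11 were planned and 1 (only genes with a start in the promoter table) was added after seeing the data. Counting overlaps of at least 50% of the interval, the kept share was 93.9%, the gained share 90.4% and the share of gained intervals on untreated shControl intervals 69.1%. Counting partners within 500 bp, they were 98.4%, 78.9% and 70.2%. With olaparib intervals at or above the median score only, they were 77.0%, 70.4% and 79.2%, with 2600 gained and 1062 lost promoters. With as many of the highest-scored olaparib intervals as there were untreated ones, they were 41.1%, 59.4% and 86.8%, with 618 gained and 3112 lost promoters. The last 2 settings remove olaparib intervals and so add losses by their construction, and the number of losses under them is not a count of closed sites. The shControl share was 62.7% with the merged list alone and 46.9% with the scored list alone. A window of 250 bp gave 42 lost promoters in place of 15, and 5528 gained ones. Joining intervals within 100 bp changed no interval. Leaving out X and Y, a window of 2500 bp, windows at both gene ends and the added alternative gave 4819 to 6374 gained and 13 to 20 lost promoters. Without depth or replicates, an interval missing from a list does not show closed chromatin.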

Other observations

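The X chromosome differed from the autosomes. It held 106 intervals untreated and 942 with olaparib, 8.89 times as many, while the autosomes ranged from 4.28 times (chromosome 9) to 6.35 times (chromosome 18). The X share of all intervals was 1.53% (1.26 to 1.85) in untreated shMETTL3 and 2.66% (2.49 to 2.83) with olaparib. In the shControl lists it was 2.69% (merged), 2.27% (scored) and 2.42% (olaparib). In LOVO shMETTL3 it was 1.46% untreated and 2.06% with olaparib.

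Gene families outside the lists above, chosen after their values were seen, were gained to unequal extents, beside 39.3% of all closed genes. Of 37 NADH dehydrogenase subunit genes, which encode respiratory complex I, 12 were open in both lists and 22 of the 25 others (88.0%) were gained. Of 77 mitochondrial ribosomal protein genes, 29 were open in both and 40 of 48 (83.3%) gained. Of 517 zinc finger genes with ZNF symbols, 203 were open in both, 174 gained (55.6% of those closed in untreated cells), 1 lost and 139 closed. Of 73 histone cluster genes, 14 were open in both and 32 of the 59 closed in untreated cells (54.2%) were gained. Of 40 HOX genes, 5 were open in both and 16 of 35 (45.7%) gained. Of 386 solute carrier genes, 96 were open in both and 102 of 290 (35.2%) gained. Of 392 olfactory receptor genes, which non-olfactory cells keep silent, 7 were gained, and of 55 keratin genes 5, with none open in untreated cells in either family. Of 66 protocadherin genes 9 were gained. In the merged shControl list 35 of 37 NADH dehydrogenase, 74 of 77 mitochondrial ribosomal, 372 of 517 ZNF and 50 of 73 histone genes were open. So were 20 of 40 HOX, 196 of 386 solute carrier, 9 of 66 protocadherin, 4 of 392 olfactory receptor and 2 of 55 keratin genes. Over all protein-coding genes, 10785 of 20037 were open there.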
